A study of Mus musculus with 115 samples.

Results

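The 9 genes described here act at the start of coagulation and in the activation of plasminogen. They were taken by name from the deposited table, and all 9 of 9 were found among its 45699 genes: F3, Tfpi, Tfpi2, Plau, Plat, Plaur, Serpine2, Thbd and Procr. RNA was sequenced from snap frozen prostate tissue of male (TRAMP x WSB/EiJ) F2 mice. For its mapping the paper used prostate weight as tumor burden, without checking by pathology that tumor was present. Every mouse was transgene positive, so the libraries form 1 group with no control and no treatment, and no genotype at other loci, tumor burden or age entered the analysis. In TRAMP mice the probasin promoter drives the SV40 T antigen in prostate epithelium, WSB/EiJ is an inbred strain derived from wild mice, and in small prostates the RNA came from the ventral lobe. Expression is given in TPM (transcript abundance scaled to a constant total), a per-length share of each library that keeps no sequencing depth, so the counting error of each value is unknown.

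Tissue factor, the product of F3, is a membrane receptor that binds factor VII and starts the extrinsic coagulation pathway, and the Kunitz-type inhibitor encoded by Tfpi blocks that step. Thrombomodulin (Thbd) and the endothelial protein C receptor (Procr) sit on endothelium and turn thrombin towards activation of the anticoagulant protein C. Urokinase (Plau), concentrated at the cell surface by its receptor (Plaur), and tissue-type plasminogen activator (Plat) cleave plasminogen to plasmin, which dissolves fibrin and matrix, and protease nexin 1 (Serpine2) inhibits thrombin and both activators.

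The libraries did not form a single cloud. The first principal component of 14593 genes, computed without the members and the other listed genes, held 48.6% of the variance and separated a larger set of 79 libraries from a smaller set of 36 (fall in BIC of 197, Ashman D of 6.11). The median level of Chga, a neuroendocrine granule protein, was 0.30 TPM in the larger set and 57.2 TPM in the smaller. Mki67, a proliferation marker, had medians of 4.23 and 83.5 TPM, and Tgm4, a secretory transglutaminase of the prostate, of 7050 and 1.83 TPM. The sets were defined from expression, so they are described side by side and were not tested against each other. Short noncoding RNAs (Rn7s1, Rn7s2 and Rn7sk) held between 42.8% and 75.6% of the TPM of a library, which lowers every other value. Correlations are of log2(TPM + 1) within a set. A gene is called where limma, fitted to all 14623 genes whose mean reached 1 TPM, gave a Benjamini-Hochberg adjusted p under 0.05. Tfpi2 had a mean of 0.503 TPM, so 8 of the 9 members were tested this way.

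The promoters of F3 and Plaur are shown because these genes followed Mki67 most closely among the members and each other among the pairs of members in the larger set. Each window runs from 250 bases before to 50 bases after the start given by RefSeq on GRCm38.p6, written 5′ to 3′ on the strand of the gene (both plus), with capitals for the AP-1 motif TGANTCA and the GC box GGGCGG on either strand.
F3 promoter, chr3:121723287-121723586: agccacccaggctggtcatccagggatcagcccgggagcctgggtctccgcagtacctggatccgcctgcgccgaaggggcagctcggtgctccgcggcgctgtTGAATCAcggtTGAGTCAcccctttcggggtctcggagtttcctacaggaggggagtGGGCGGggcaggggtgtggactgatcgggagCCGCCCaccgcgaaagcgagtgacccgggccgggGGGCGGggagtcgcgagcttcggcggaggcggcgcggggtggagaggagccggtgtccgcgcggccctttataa
Plaur promoter, chr7:24462233-24462532: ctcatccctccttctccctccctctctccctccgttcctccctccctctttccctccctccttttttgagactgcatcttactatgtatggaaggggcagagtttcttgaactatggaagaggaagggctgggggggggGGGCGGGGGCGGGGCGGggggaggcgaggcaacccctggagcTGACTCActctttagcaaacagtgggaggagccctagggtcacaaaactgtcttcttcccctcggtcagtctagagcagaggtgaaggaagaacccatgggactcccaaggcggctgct
The F3 window held AP-1 matches that start at positions -146 and -135, counted from the start site, and GC boxes at -89, -58 and -24. The Plaur window held an AP-1 match at -69 and GC boxes side by side at -111, -105 and -100, the last of which shares 1 base with the one before it. Of 32851 promoters of this length, 7.81% held the AP-1 motif and 35.7% the GC box. The F3 window was 70.3% G or C with 32 CpG, and the Plaur window 59.3% with 7 CpG, against medians of 52.7% and 7 over all promoters. RefSeq windows were matched for 6 of the 9 members, and among the others an AP-1 match stood at -154 in Procr and at -77 in 1 of 3 Tfpi2 promoters, while the windows of Serpine2 and Tfpi held none. These matches describe letters only. No binding was measured.

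On GRCm38, F3 lies on chromosome 3 from 121723537 to 121735048, Plaur on chromosome 7 from 24462484 to 24475968, Plau on chromosome 14 from 20836660 to 20843385 and Plat on chromosome 8 from 22757727 to 22782844. Tfpi lies on chromosome 2 from 84432855 to 84476775, Thbd on chromosome 2 from 148404466 to 148408188, Procr on chromosome 2 from 155751117 to 155755471, Tfpi2 on chromosome 6 from 3962595 to 3988919 and Serpine2 on chromosome 1 from 79794197 to 79861180. The exons of the 9 genes shared 0 bases with those of other genes in GENCODE M21. The annotation behind the deposited values is not given, so overlap in it was not checked.

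Serpine2 was the highest of the 9 genes, from 3.82 to 362 TPM with a median of 61.4, and reached 1 TPM in every library. It was above Tfpi, the next by median at 10.4 TPM, in all libraries but 2. Tfpi ranged from 0.15 to 51.2 TPM. The next neighbours in the order were not clearly apart. Tfpi was above Plau (0.37 to 283 TPM, median 4.85) in 56 libraries and below it in 59, Plau above Thbd (0.16 to 24.2, median 4.02) in 75, and Thbd above Plat (0.04 to 140, median 3.77) in 65. Plat was above F3 (0.01 to 14.8 TPM, median 2.35) in 86 libraries, and F3 above Plaur (0.15 to 15.2, median 1) in 92. Plaur and Procr (0.02 to 7.64 TPM, median 0.81) were again close, with Plaur higher in 68. Tfpi2, a homologue of Tfpi, was lowest at a median of 0.29 TPM. The value was 0 in 4 libraries and at least 1 TPM in 11.

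**Figure D1:**
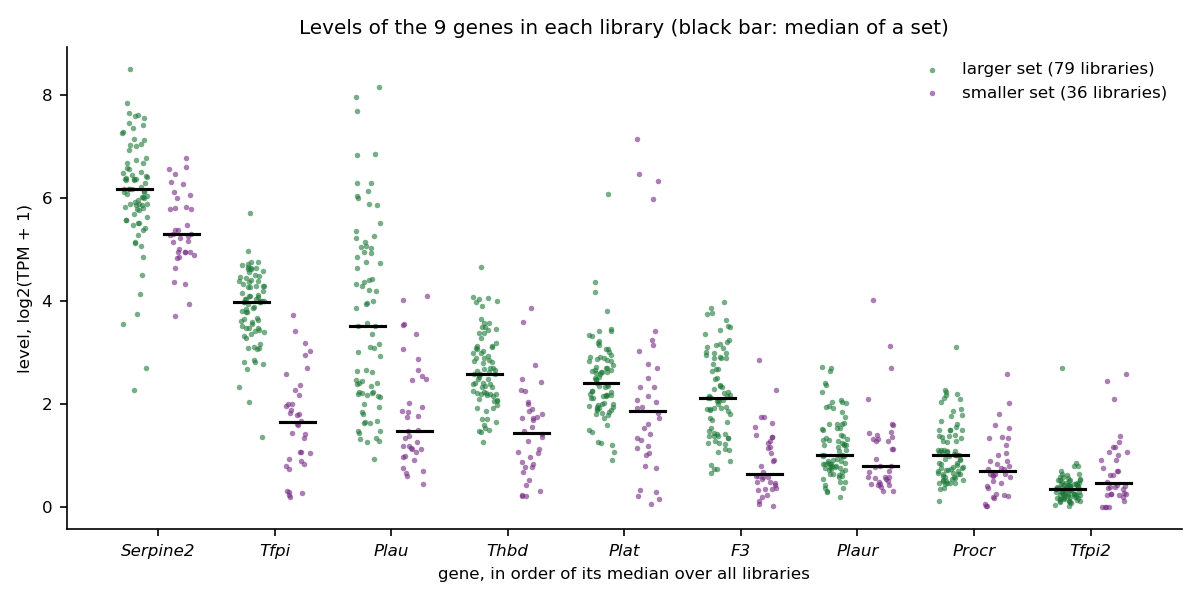
Level of each gene in each library on the log2(TPM + 1) scale, with genes ordered by their median over all libraries. Green points are the 79 libraries of the larger set, purple points the 36 of the smaller set, and black bars are set medians. Serpine2 stands highest and Tfpi2 lowest, Plau is the most spread in the larger set, and 4 libraries of the smaller set stand apart for Plat.

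Within a library, the inhibitors usually exceeded the initiator or enzyme they meet. F3 was above Tfpi in 8 libraries and below it in all others, with a median log2 ratio of F3 to Tfpi (each TPM + 1) of -1.32, from -4.27 to 0.92. Plau was above Serpine2 in 11 libraries, each of them in the larger set. The receptor gene Plaur was above Plau in 4 libraries. Of the plasminogen activators, Plau led in 61 libraries and Plat in 54, in a split of 48 to 31 in the larger set and 13 to 23 in the smaller. Thbd was above Procr in all libraries but 2, and Tfpi above Tfpi2 in every library.

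The spread differed as much as the level. In the larger set the SD of log2(TPM + 1) was 1.79 for Plau and 1.06 for Serpine2, against a median of 0.44 over all genes tested. The other members tested had SDs from 0.57 (Procr) to 0.85 (F3). Median levels of 8 members were higher in the larger set than in the smaller, with Tfpi at 14.9 against 2.12 TPM, Plau at 10.4 against 1.79 and F3 at 3.37 against 0.565. Tfpi2 was the other way, at 0.28 against 0.38 TPM. The ranges of the sets overlapped for every member. These are bulk samples, so fewer cells of a type and less RNA per cell cannot be told apart here.

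F3 rose with Mki67 in the larger set, and so did Plaur. F3 ran from 0.58 to 14.8 TPM there (median 3.37) and Plaur from 0.15 to 5.58 (median 1.02). For F3, Pearson's r was 0.762 and Spearman's rho 0.753 (n = 79, two-sided permutation p = 1e-05 for each, the smallest that 100000 permutations can give), with limma adjusted p = 2.53e-15. For Plaur, r and rho were both 0.756 (permutation p = 1e-05 for each, limma adjusted p = 6.33e-15). Leaving out the 2 libraries most distant from the Mki67 median, r was 0.739 for F3 and 0.727 for Plaur. In total 5 of the 8 members tested were called, all with positive r, but 72.9% of all genes were called positive with Mki67 in this set and 1.44% negative. The members are therefore better read by rank. Of all genes, 5.92% had an r at least that of F3, and 6.31% at least that of Plaur.

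Serpine2 (r = 0.463, rho = 0.484, adjusted p = 2.86e-05) and Plat (r = 0.458, rho = 0.561, adjusted p = 3.65e-05) were also called by limma, but 45.6% and 46.2% of genes had an r at least as high. Thbd was called at r = 0.305 (adjusted p = 0.00832), exceeded by 66.1% of genes, and turned to r = -0.059 when TPM was rescaled by the median of ratios. Tfpi, Plau and Procr were not called, with r of -0.102, -0.139 and 0.136. For Tfpi and Plau that is low among genes, since 4.47% and 3.36% had an r at most as high. Tfpi2 had r = 0.241 (permutation p = 0.0258) and rho = 0.432 (permutation p = 5e-05), and r = 0.387 without the library labelled W4548.

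The share of the 3 noncoding RNAs moved with Mki67 in the larger set (r = -0.584, rho = -0.590, permutation p = 1e-05 for each). The members had r with this share from -0.655 (Plat) to 0.018 (Tfpi), with F3 at -0.652 and Plaur at -0.574, and Tgm4 had r = 0.363. The part of the share in these results was not tested. Median-of-ratios scaling brought the median r with Mki67 over all genes from 0.433 to -0.020 and the calls to 22% positive and 20% negative. On that scale F3 (r = 0.651), Plaur (r = 0.649) and Serpine2 (r = 0.296) were still called positive, Plat was not (r = 0.254), and Tfpi (r = -0.355, adjusted p = 0.0045) and Plau (r = -0.306, adjusted p = 0.0164) were called negative by limma. F3 was called in 14 of 14 alternatives, with r between 0.299 and 0.776, and Plaur in 13 of 14. Mki67 itself moved with the macrophage marker index (r = 0.550, rho = 0.574, permutation p = 1e-05 for each). The index of 3 T cell markers, whose summed level ran from 0.09 to 4.12 TPM (median 0.56) with 1 of the 3 at 0 in some library, had r of 0.666 with Mki67, 0.664 with F3 and 0.640 with Plaur. The part of either cell type in these relations was not tested.

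In the smaller set every member had a negative r with Mki67. Tfpi and Plau had a negative r in the larger set too (-0.102 and -0.139, not called), and the other members a positive one. Of the 8 members tested, 6 were called with Mki67, all with negative r, where 21.6% of all genes were called negative and 23.3% positive. Plau stood out with r = -0.642 and rho = -0.748 (n = 36, permutation p = 6e-05 and 2e-05, limma adjusted p = 0.000144). Leaving out the 2 libraries most distant from the Mki67 median, its r was -0.760. Procr (r = -0.481), F3 (r = -0.480), Tfpi (r = -0.445), Plaur (r = -0.406) and Thbd (r = -0.396) had limma adjusted p between 0.00912 and 0.0337. Plat (r = -0.345) and Serpine2 (r = -0.318) were not called. Mki67 followed an index of 5 other proliferation markers less closely here (r = 0.535) than in the larger set (r = 0.970). With that index the members had r from -0.339 (F3) to 0.163 (Plat) in the smaller set, with Plau at -0.179. A fall with Mki67 here is therefore not a fall with all proliferation markers. The macrophage marker index was also lower where Mki67 was higher (r = -0.452), as were the endothelial (r = -0.395), smooth muscle (r = -0.489) and luminal (r = -0.707) indices, and their part was not tested. Whether the relation with Mki67 differs between the sets was not tested, since the sets were made from expression. Median-of-ratios scaling gave 23.6% positive and 38.2% negative calls over all genes here, and rescaling TPM without its 20 most abundant genes gave 36.2% and 24%.

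**Figure D2:**
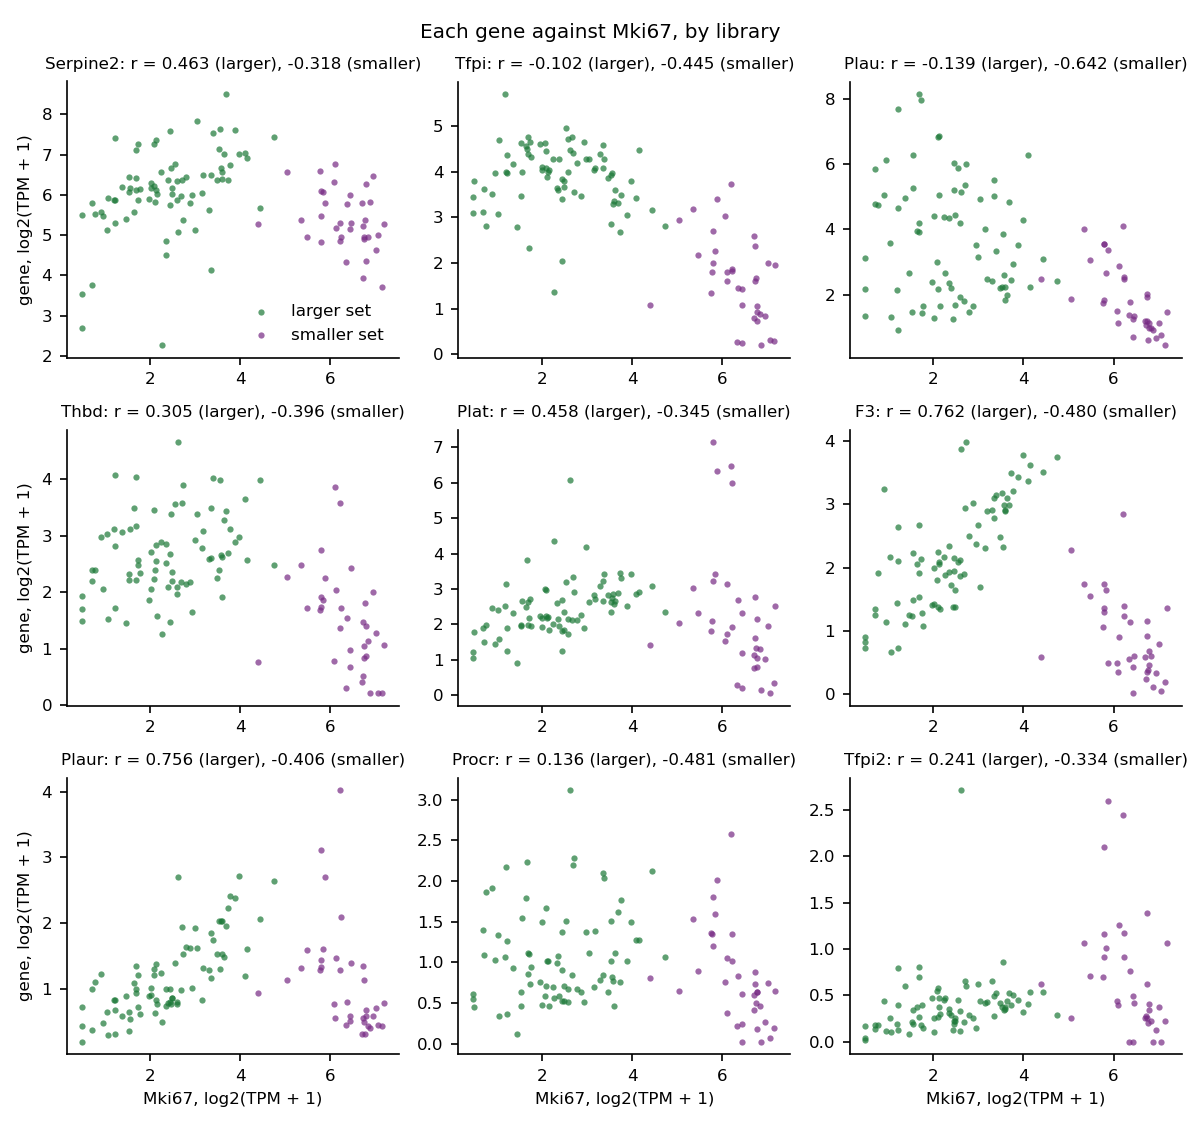
Each gene against Mki67, both as log2(TPM + 1), with 1 point per library (green, larger set, n = 79; purple, smaller set, n = 36) and Pearson's r of each set in the panel title. F3 and Plaur climb with Mki67 in the larger set (r = 0.762 and 0.756), while every gene has a negative r in the smaller set, down to -0.642 for Plau.

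Marker lists for cell types were compared with the members in the larger set after the data were seen, using the mean log2(TPM + 1) of each list as an index. All 6 endothelial markers had a median of at least 1 TPM and none was at 0 in any library, with a summed level of at least 5.65 TPM (median 20.6). The anticoagulant receptors followed them. Procr had r = 0.919 and rho = 0.904 with the endothelial index (n = 79, permutation p = 1e-05 for each, limma adjusted p = 2.46e-30), and Thbd r = 0.865 and rho = 0.874 (adjusted p = 3.8e-23). Of all genes, 0.157% and 0.848% had an r at least as high. Leaving out the 2 libraries most distant from the median index, r was 0.907 and 0.851. Of the 8 members tested 6 were called positive with this index, against 79.6% of all genes positive and 0.492% negative, and 1 of the 6, Plaur, went from r = 0.330 to -0.056 under median-of-ratios scaling. The genes most like Procr over the 79 libraries were Pecam1 (r = 0.940), Mmrn2 (0.937) and Tie1 (0.936), and those most like Thbd were Cd34 (0.940), Slc43a3 (0.915) and Nid1 (0.913). Pecam1 and Tie1 encode endothelial surface proteins, and Cd34 marks endothelial and progenitor cells.

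Of these indices, Plat followed that of macrophage markers most closely. Its r with the macrophage index was 0.901 and its rho 0.897 (permutation p = 1e-05 for each, limma adjusted p = 8.27e-28), which 0.479% of genes matched or exceeded, and r was 0.865 without the 2 farthest libraries. The summed level of the 6 macrophage markers ran from 13.8 to 646 TPM (median 67.1), with none at 0. The library labelled W4548 held the highest Plat of the larger set, 66.4 TPM, and also its highest Tfpi2 (5.54 TPM), Thbd (24.2) and Procr (7.64). Tfpi2 had r = 0.791 with the same index and 0.796 with the fibroblast index (permutation p = 1e-05 for each), and F3 had r = 0.764 with the macrophage index, which 3.6% of genes matched or exceeded. The anticoagulant receptors rose with the macrophage index as well. Thbd had r = 0.767, matched or exceeded by 3.47% of genes, and Procr r = 0.695, by 8.94%. In the macrophage comparison 7 of 8 members were called positive, all but Tfpi, against 81.1% of all genes positive and 1.99% negative. Among these, Serpine2 went from r = 0.258 to -0.018 under median-of-ratios scaling. Fibroblast markers gave 6 of 8, against 71.2% positive and 2.58% negative, with r of 0.823 for Thbd, 0.783 for Plat and 0.779 for Procr.

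The genes most like Plat were Lrrc25 (r = 0.907), Lgmn (0.901), a lysosomal protease, and Cyth4 (0.891). Those most like Tfpi2 were Adamts4 (0.903), Hmox1 (0.896), the inducible heme oxygenase, and Msr1 (0.887), a macrophage scavenger receptor. For F3 they were Pim1 (0.922), Abcg1 (0.921) and Plekha2 (0.921), and for Plaur Anxa3 (0.861), Mlkl (0.852) and Tnfrsf12a (0.848). All these r are over the same 79 libraries and are descriptions with no test.

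Plau and Serpine2 rose with seminal vesicle secretory genes. The summed level of the 4 seminal vesicle markers ran from 1.71 to 161471 TPM in the larger set (median 870). Plau had r = 0.598 and rho = 0.567 with this index (n = 79, permutation p = 1e-05 for each, limma adjusted p = 8.41e-07), and 0.349% of genes had an r at least as high. Serpine2 had r = 0.448 and rho = 0.408 (permutation p = 8e-05 and 0.0002, adjusted p = 0.00314), matched or exceeded by 0.8% of genes. These 2 of the 8 members were called, against 1.42% of all genes positive and 0.315% negative. Without the 2 farthest libraries r was 0.586 and 0.398, and both were called in 13 of 13 alternatives, with r between 0.567 and 0.684 for Plau and between 0.398 and 0.712 for Serpine2. The other 6 had r from -0.275 (Tfpi) to 0.183 (Thbd). Plau was not particular to this index. Its r was 0.613 and its rho 0.655 with the endothelial index, where 16% of genes had an r at least as high. With the fibroblast index its r was 0.518, matched or exceeded by 21.4% of genes.

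The highest Plau levels were 283, 249 and 205 TPM, in the libraries labelled W4360, W4421 and W4492. Svs4, a seminal vesicle secretory protein, stood at 1169, 13842 and 2302 TPM in these. The highest Serpine2, 362 TPM, was in W4434 with Svs4 at 90520 TPM. How much seminal vesicle tissue a sample held was not measured, and its part was not tested. Serpine2 also rose with the smooth muscle index (r = 0.615, rho = 0.548, limma adjusted p = 1.31e-08), which 7.76% of genes matched or exceeded. That index called 7 of 8 members positive, against 76.8% of all genes positive and 0.67% negative. Under median-of-ratios scaling it called 1 of 8, but the share of all genes is not given for that scaling. By rank, Serpine2 had r = 0.506 there, matched or exceeded by 1.71% of genes. F3 and Plaur turned to r of -0.086 and -0.018, matched or exceeded by 63.7% and 54%. The genes most like Plau were Pfkfb3 (r = 0.916), a regulator of glycolysis, Emx2 (0.901) and Pou3f3 (0.887), both homeobox genes, and those most like Serpine2 were Sgms2 (0.812), Sgk1 (0.804) and Hsd17b11 (0.801).

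**Figure D3:**
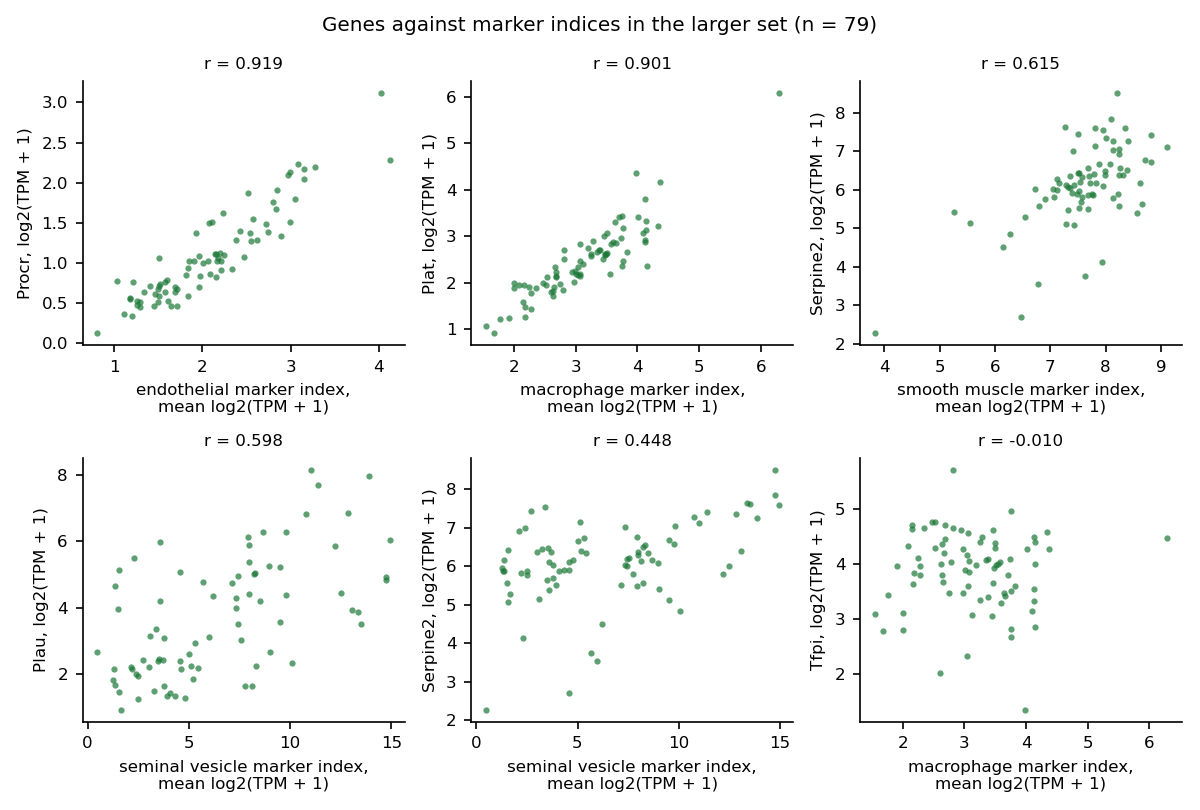
Members against cell type and seminal vesicle marker indices in the larger set, with 1 point per library (n = 79) and r above each panel. Both axes are log2(TPM + 1), averaged over the marker list for the index. Procr and Plat lie close to a line with the endothelial and macrophage indices (r = 0.919 and 0.901), Plau and Serpine2 rise with the seminal vesicle index (0.598 and 0.448), and Tfpi has r = -0.010 with the macrophage index on this scale and -0.290 under median-of-ratios scaling.

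The relation of Tfpi to the cell type markers moved with the scaling. In the larger set its r on the TPM scale was 0.110 with the endothelial, -0.061 with the fibroblast and -0.010 with the macrophage index, and it took part in none of the called pairs of members. Under median-of-ratios scaling limma called it negative with the fibroblast (r = -0.267, adjusted p = 0.0352) and the macrophage index (r = -0.290, adjusted p = 0.0223), and rescaled without the 20 most abundant genes with the macrophage index (r = -0.277, adjusted p = 0.0278). In the smaller set without W1118, W1050, W1915 and W1790, which stood apart there, its r was 0.699, 0.659 and 0.721 with the endothelial, fibroblast and macrophage indices, and whether the sets differ was not tested. On the TPM scale of the larger set it was called with the smooth muscle index (r = 0.317, adjusted p = 0.00606), but r was 0.063 once the 2 libraries most distant from the median index were left out. The genes most like it were Tmem87b (r = 0.754), Mfsd9 (0.745) and H13 (0.742), a signal peptide peptidase.

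Tfpi rose with Tgm4. Over the larger set 6 of the 8 members were called with Tgm4, Tfpi and Serpine2 with positive r and Plat, F3, Procr and Plaur with negative r, against 12.2% of all genes positive and 26.7% negative. Median-of-ratios scaling moved those shares to 29.1% and 28.5%, and rescaling without the 20 most abundant genes to 24.2% and 25.8%. However, Tgm4 itself fell into separate parts there, 59 libraries from 2901 to 16895 TPM and 20 from 0.64 to 2469 TPM, so relations are given within the parts. Among the 59, Tfpi had r = 0.569 and rho = 0.510 (permutation p = 1e-05 and 5e-05, limma adjusted p = 3.4e-05), and r = 0.520 without the 2 farthest libraries. Plau (r = -0.356), F3 (r = -0.345) and Procr (r = -0.340) were called negative, with adjusted p from 0.0175 to 0.0255. There 19.5% of all genes were called positive and 16.3% negative. Among the 20 libraries 0 of 8 members were called by limma, 2 of them with an unadjusted p under 0.05 (Serpine2 with r = 0.609, adjusted p = 0.178, and Plat with r = -0.477, adjusted p = 0.438), against 0.205% and 0.0137% of all genes. Tfpi had r = -0.005 in these, which 1 library decided, since r was -0.469 without W1154 and -0.576 without the 2 farthest libraries.

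Nup35, a nuclear pore gene 3.77 Mb from Tfpi on chromosome 2, also fell into parts in the larger set. Tfpi had a median of 21.4 TPM (8.79 to 51.2) in the 25 libraries low in Nup35 and of 12.3 TPM (1.57 to 30.2) in the 54 high in it, so the ranges overlapped. Within the parts r was -0.204 (permutation p = 0.332) and -0.226 (permutation p = 0.0995). The parts come from expression and the labels hold no genotype, so no test was made between them.

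With Chga, 3 of the 8 members were called in the larger set, Procr, Thbd and Plau, all with positive r, against 18.7% of all genes positive and 0.137% negative. Median-of-ratios scaling changed those shares to 9.78% and 11.3%, and rescaling without the 20 genes to 15.7% and 3.85%. Chga was low throughout this set but fell into parts, 72 libraries from 0.06 to 0.81 TPM and 7 from 1.19 to 4.84 TPM. Within the 72, 0 of 8 members were called by limma, and Procr (r = 0.308, adjusted p = 0.258) and Plau (r = 0.247, adjusted p = 0.407) had an unadjusted p under 0.05. Of all genes 0.869% were called positive there and 0% negative. Within the 7, Procr had r = 0.749 (two-sided exact permutation p = 0.0649).

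In the smaller set 4 libraries, labelled W1118, W1050, W1915 and W1790, stood apart. Plat was at 79.3, 140, 62.2 and 86.9 TPM in them and at most 9.73 TPM in the other 32. Plaur was at 5.5, 7.68, 3.26 and 15.2 TPM, against 0.24 to 2.05 TPM. Both genes were thus higher in all 4 with no overlap, while the other 7 members overlapped with the 32. How many of all genes separate the 4 from the 32 was not counted, so this count has no share beside it. A mixture of 2 normal distributions fitted to Plat or to Chga also set exactly these 4 apart. Neither split met the rule used here for separate parts, which asks for at least 6 libraries in each. The lack of overlap in Plat and Chga therefore goes with the choice of libraries. The same 4 were low in Chga (0.15, 1.15, 1.23 and 2.55 TPM, against at least 21.1 TPM) and in the neuroendocrine genes Insm1 (0.11 to 1.91 TPM, against at least 12.7) and Ncam1 (4.02 to 12.4, against at least 16.2). The epithelial keratins Krt8 (369 to 630 TPM, against at most 311) and Krt18 (355 to 749, against at most 161) and the collagen gene Col1a1 (up to 308, against at most 94.7) were high, and their ranges did not overlap those of the 32. Mki67 overlapped, at 54.7 to 74 TPM against 20 to 144 TPM. These libraries were picked out by their values, so the differences are descriptions with no test.

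Relations with Chga in the smaller set rested on these 4. Over all 36, 4 of 8 members were called negative (Plat, Plaur, Procr and Tfpi), against 24.2% of all genes negative and 9.94% positive. Median-of-ratios scaling gave 19.2% and 14.7% here, and rescaling without the 20 genes 16% and 21%. Without the 4, 0 of 8 members were called by limma and 0 had an unadjusted p under 0.05, and r was 0.161 for Plat, 0.214 for Plaur, 0.162 for Procr and -0.085 for Tfpi (n = 32), against 9.11% and 0.198% of all genes positive and negative. The relations with Mki67 did not rest on them. Without the 4, 7 of 8 members were called negative, with Plau at r = -0.688 and Plat added at r = -0.406 (limma adjusted p = 0.0372), against 21.3% of all genes negative and 25.4% positive. With Tgm4, 0 of 8 members were called over the 36 and 4 had an unadjusted p under 0.05, against 2.18% and 0.568% of all genes. Without the 4, Tfpi (r = 0.545), F3 (0.542) and Plau (0.505) were called positive (limma adjusted p = 0.0191, 0.0224 and 0.0339), against 6.87% and 2.4%. Those r fell to 0.284, 0.224 and 0.262 without the 2 farthest libraries, W4517 and W4419, where Tgm4 was at 2469 and 195 TPM.

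**Figure D4:**
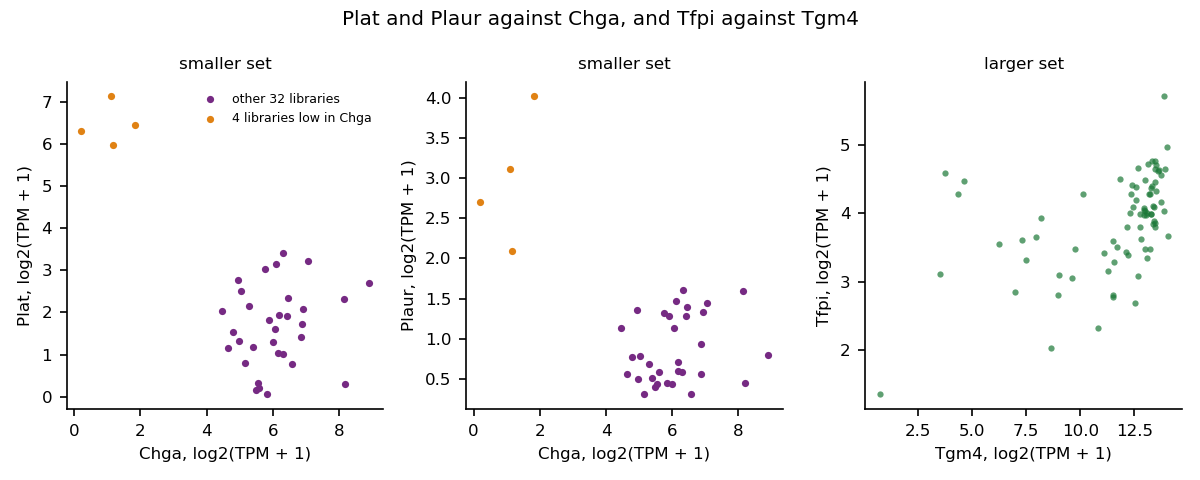
Left and middle, Plat and Plaur against Chga in the smaller set, with the 4 libraries low in Chga in orange and the other 32 in purple. Right, Tfpi against Tgm4 in the 79 libraries of the larger set. All axes are log2(TPM + 1) and each point is a library. The 4 libraries lie above all others for Plat (62.2 to 140 TPM) and Plaur (3.26 to 15.2 TPM), and Tfpi climbs with Tgm4 among the libraries high in Tgm4.

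Among themselves, 15 of the 28 pairs of tested members were called in the larger set, all with positive r. In either set a pair was called where the adjusted p was under 0.05 in both fits, with each gene in turn as covariate. Over the 8 fits of the larger set, 64.8% of all genes were called positive and 1.4% negative. Those shares, here and in the smaller set, count single fits, so their rule is looser than that for pairs. F3 with Plaur (r = 0.834, limma adjusted p = 7.94e-19) and Thbd with Procr (r = 0.827, adjusted p = 2.67e-19) were the highest. F3 with Plat (0.660), Plat with Thbd (0.638) and Plat with Procr (0.633) followed, while Plau was called with Thbd (0.551) and Procr (0.573) but with no other member. Tfpi with F3, the inhibitor and the initiator, had r = -0.159, and Plau with its receptor Plaur r = 0.047. Neither was called. Tfpi2 had r = 0.788 with Plat.

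In the smaller set 21 of the 28 pairs were called, all positive, against 35.6% of all genes positive and 12.7% negative, and Serpine2 was in none. Plat with Plaur had r = 0.920, and 0.814 without the 4 libraries. There 16 pairs were called, but the share of all genes is not given for those fits. Plau with Plaur, not called in the larger set, had r = 0.820 here (adjusted p = 3.11e-08), and Tfpi with F3 r = 0.693 (adjusted p = 3.25e-05). Whether the pairs differ between sets was not tested. Without the 4 libraries F3 had r = 0.875 and rho = 0.912 with the smooth muscle index (n = 32, permutation p = 1e-05 for each), Plat r = 0.929 with the fibroblast and 0.924 with the macrophage index, and Serpine2 at most r = 0.205 with any of the 5.

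**Figure D5:**
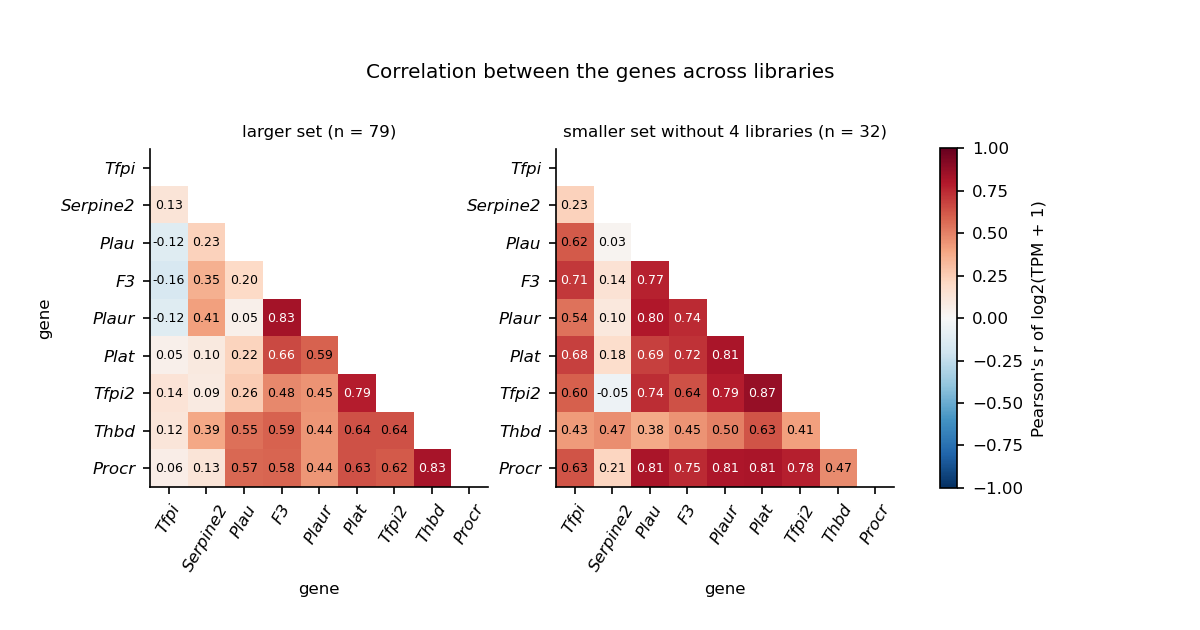
Pearson's r of log2(TPM + 1) between each pair of the 9 genes across the larger set (left, n = 79) and the smaller set without 4 libraries (right, n = 32). Red is positive and blue negative. Tfpi stands apart from the others on the left, and Serpine2 on the right.

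Of 43 other genes of coagulation and plasminogen activation listed, 42 were found and 18 had a mean of at least 1 TPM. With Mki67 in the larger set 9 of the 18 were called positive and 1 negative, against 72.9% and 1.44% of all genes. The median r of the 18 was 0.233, against 0.433 over all genes. F2rl1, a protease-activated receptor cleaved by the complex of tissue factor with factor VII, had r = 0.766 (limma adjusted p = 1.83e-15). The plasminogen receptor genes Plgrkt (r = 0.732), S100a10 (0.721) and Anxa2 (0.716) were called as well, as were the Kunitz-type inhibitors Spint1 (0.681) and Spint2 (0.578). Anxa2 ran from 18.5 to 327 TPM (median 79.4) and S100a10 from 16.6 to 285 TPM (median 70.5) in this set, so both exceeded Plat and Plaur in level by median. Pros1, the cofactor of protein C, had r = 0.529, F2r, a thrombin receptor, r = 0.340 and F13a1, the factor XIII A chain, r = 0.248. The gene called negative was Serpina5 (r = -0.372), the protein C inhibitor, with a median of 0.16 TPM.

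With Tgm4 1 of the 18 was called positive (Serpina5) and 10 negative, against 12.2% and 26.7% of all genes. With Chga 5 were called, all positive (Vtn, Serpini1, Vwf, Lrp1 and F2r), against 18.7% positive and 0.137% negative. Since Tgm4 and Chga fall into parts in this set, no r is given for these. Of the 10, Fga and Fgg passed the filter only through W1118, a library of the smaller set, and were at a median of 0 TPM in the larger set. Plasminogen itself (Plg) and prothrombin (F2) were below 1 TPM on average.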

How the data were processed

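RNA was sequenced from prostate tissue of (TRAMP x WSB/EiJ) F2 mice after depletion of ribosomal RNA. Per the labels and the paper, the authors trimmed the first 17 bases and the last base of each read, mapped reads with Bowtie2 2.2.5 to an allele-specific C57BL/6 and WSB transcriptome made with Seqnature on GRCm38, and quantified genes with RSEM 1.2.20. The deposited values are TPM, made by the authors and scaled within a library, so depth is unknown and no count model or counting interval was used. The annotation and whether strand was kept are not given in the sources used here. Genes were named from GENCODE M21 (45136 of 45699 matched), and promoters came from RefSeq.

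All libraries (79 and 36 in the sets) were placed in 1 group. They outnumber the prostates that the paper describes, and which of them it used is not stated in the sources used here. Whether any came from the same mouse is not given, so p-values measure the spread between libraries. Sets came from a mixture of 2 normal distributions on the first principal component, called separate where BIC fell by over 10, Ashman D exceeded 2 and each part held at least 6 libraries. The same rule was applied to each covariate. Fits were log2(TPM + 1) of each gene on log2(TPM + 1) of a covariate gene, with limma 3.58.1 and a trended prior, over genes whose mean reached 1 TPM. The fit was tested on simulated data. Pearson's r and Spearman's rho of members were tested with 100000 two-sided permutations. Two-sided exact permutation was used for 7 libraries. Tfpi2 was tested by limma with a filter of 0.1 TPM.

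The members and lists were chosen with earlier results of these data known. The genes named are the members, Chga, Mki67, Tgm4 and Nup35, up to 3 genes per pathway list with the largest r among those called, the 3 genes most like each member, and markers. Other genes named (Spint2, F2r, Pros1, F13a1, Plg, F2, F5, F9, Svs4, Alb) were chosen after their values were seen, as were the marker index comparisons, the parts, and the libraries left out by name. The alternatives tried were median-of-ratios scaling, a pseudocount of 0.1, rescaling without the 20 most abundant genes, other filters, ranks, 3 principal components or 4 cell type indices as covariates, no trended prior, and libraries left out. R 4.3.3 and Python 3.11.15 were used, with matplotlib 3.10.9, scikit-learn 1.9.0, scipy 1.17.1, pandas 2.3.3 and numpy 2.4.6.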

Additional observations from a re-analysis of the deposited data

How the results depend on the processing

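Of 360 repeats of the relations between a member and Chga, Mki67 or Tgm4 in the larger set, 304 kept direction and side of the threshold, 36 lost the call, 10 gained it and 10 reversed. In the smaller set the numbers were 273, 21, 9 and 9 of 312. The causes were not tested. The share of all genes called was not kept with principal components or cell type indices as covariates, nor with ranks. It was not kept with W1118 or the 2 farthest libraries left out either. Changes in the counts of members under those settings therefore cannot be set beside changes over all genes. With the first 3 principal components as covariates, the members called in the larger set went from 3 to 0 with Chga, from 5 to 1 with Mki67 (F3), from 6 to 2 with Tgm4, from 6 to 3 with the endothelial index, from 7 to 2 with smooth muscle and from 7 to 4 with macrophage, pairs from 15 to 7 and calls of pathway genes from 26 to 8. In the smaller set all calls went to 0, from 4 with Chga, 6 with Mki67 and 21 pairs. Signs then turned in the larger set for Plat with Mki67 (-0.008), for Tfpi (-0.236), F3 (0.220) and Plaur (0.210) with Tgm4, for Tfpi with smooth muscle (-0.106) and for Serpine2 with macrophage (-0.044), and in the smaller set with Mki67 for Tfpi (0.254), F3 (0.494), Plau (0.047), Plaur (0.043), Thbd (0.045) and Procr (0.070). With the 4 cell type indices as covariates, the larger set kept 0 members with Chga, 2 with Tgm4 and 3 pairs, and the smaller 2 with Chga, 1 with Mki67 and 3 pairs, while Plat turned with Mki67 (-0.060) and Tgm4 (0.062). Median-of-ratios scaling turned Thbd with Mki67 (-0.059), Plaur with endothelial (-0.056), F3 (-0.086) and Plaur (-0.018) with smooth muscle and Serpine2 with macrophage (-0.018). It left 1 member with smooth muscle, against 3 when rescaled without 20 genes. The shares of all genes called with smooth muscle under these scalings are not given. Ranks gave 1 member with Chga in the larger set and 0 in the smaller. Within the low Chga part 0 members were called, and within the low Tgm4 part 0, with Tfpi at -0.005, F3 at 0.215 and Plaur at 0.248. Without W1154 Tfpi had -0.469 and Plaur 0.028 there, and without the 2 farthest libraries F3 had -0.125 and Plaur -0.096. For Chga in the smaller set 1 member was called without the 2 farthest libraries, 2 without W1118 and 0 without the 4 libraries, where Plat (0.161), Plaur (0.214) and Procr (0.162) turned, and with Tgm4 3 were called without the 4. No paired analysis was possible because there is 1 group. No set was fitted with each library left out in turn across all genes, since each holds over 5 libraries. Depth is unknown, and members near 0 TPM such as Tfpi2 are the least certain.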

Other observations

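The library labelled W1118, 1 of the 4 that stood apart in the smaller set, held the highest levels of several liver-made coagulation and fibrinolysis genes, named here because they were high in it. Others were highest elsewhere, F9 in W370 (5.6 TPM), F5 in W4548 (7.47 TPM, against 4.49 in W1118) and Pros1 in W4548 (53 TPM). In W1118 Fgg stood at 131 TPM, against 1.05 TPM in the next library. Fga stood at 125 against 0.5 TPM, and Fgb, the third fibrinogen chain, at 76.6 against 0.65 TPM. Antithrombin (Serpinc1) stood at 59 against 1.19 TPM, kininogen (Kng1) at 58.9 against 1.43, prothrombin (F2) at 33.4 against 1.76 and plasminogen (Plg) at 19.9 against 0.15. Albumin (Alb) stood at 574 TPM, with 7.38 TPM in the next library. In the other 3 of the 4 libraries Alb was at 0.16, 0 and 0 TPM, while Plat was at 140, 62.2 and 86.9 TPM. The source of these transcripts was not tested.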
